A study of Aspergillus nidulans with 2 samples.

Results

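The genes mirB, mirC and hemA of Aspergillus nidulans (Emericella nidulans) stand at 2 points of iron handling, the import of siderophore-bound iron and the first step of heme synthesis. They were chosen by the gene symbols in the array's platform annotation, and each had 1 probe, so they make up 3 of the 2064 genes named on the array and 3 of its 3533 probes. All 3 probes had a value on both arrays, as did 2265 probes in all. The choice was made with their ratios in this same comparison known. Their ratios are therefore described without a test and support nothing beyond themselves.

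Filamentous fungi take up iron largely as complexes with siderophores, small chelators that are secreted, loaded with ferric iron outside the cell and carried back in by transporters of the major facilitator superfamily. In A. nidulans, MirB imports triacetylfusarinine C, the main secreted siderophore, and MirC belongs to the same family of transporters. Transcription of siderophore genes is held down by the GATA factor SreA when iron is plentiful. Heme is made from glycine and succinyl-CoA, and HemA, 5-aminolevulinate synthase, catalyses the first step in mitochondria. Iron bears on oxidative stress in both directions, since free ferrous iron turns hydrogen peroxide into hydroxyl radicals while catalases and cytochromes need heme.

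Menadione-exposed mycelium and untreated mycelium, both of strain FGSC 26, were compared on 2-colour cDNA arrays, menadione being a quinone that generates superoxide by redox cycling. Both cultures grew for 18 h at 37 °C in nitrate medium with yeast extract before transfer to fresh minimal-nitrate medium for 6 h, with 0.8 mM menadione (sodium bisulfite compound) or without it. Menadione RNA carried Cy5 on the first array (flip) and Cy3 on the second (flop), and untreated RNA carried the other dye. No label states whether the arrays held separate cultures or the same RNA extracts. An SD or a p-value over the 2 arrays may therefore reflect technical spread alone.

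Values are log ratios, read here as log2 and as menadione over untreated. Neither reading is stated by the authors. That direction is likely because menadione RNA is the first channel of both samples, but it is not settled. If it ran the other way, every "lower" would become "higher". The flip array held 3049 values with a median of 0.01 and an SD of 0.965, and the flop array 2267 values with a median of 0.10 and an SD of 1.16. Signal intensities were not used here, so the depth behind each ratio is unknown, and precision is limited by there being only 2 arrays. RNA came from whole mycelium, so less transcript per cell and fewer cells that express a gene cannot be told apart.

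The siderophore transporter gene mirB was far lower with menadione, the heme synthesis gene hemA was moderately lower, and the second transporter gene mirC lay near the middle of the array. Each result rests on 1 probe whose gene name may not hold, as described below. The mean log2 ratio was -4.51 ± 1.52 for mirB, -1.62 ± 0.014 for hemA and 0.07 ± 0.20 for mirC (SD, n = 2 arrays each). On a linear scale mirB was 22.7-fold and hemA 3.07-fold lower, and mirC had a ratio of 1.05. At least 2-fold lower on both arrays were 2 of the 3 genes, mirB and hemA. Of all 2265 probes with both values, 9.36% (212) were at least 2-fold lower on both arrays and 8.83% (200) at least 2-fold higher. Since the genes were chosen on this comparison, nothing is read from that count.

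**Figure D1:**
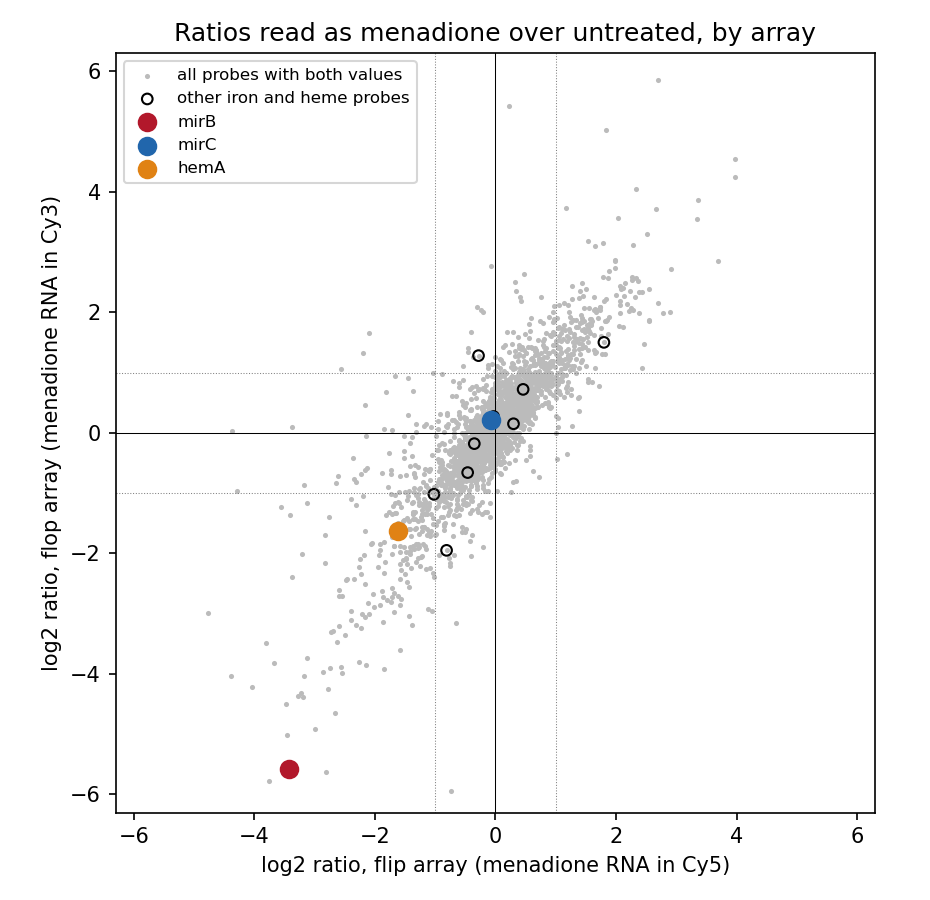
Each point is 1 of the 2265 probes with both values, with the flip log2 ratio on the horizontal axis and the flop log2 ratio on the vertical axis; dotted lines mark 2-fold. The mirB probe lies in the lower left corner at -3.43 and -5.58, hemA lies past the 2-fold lines at -1.61 and -1.63, and mirC lies near the origin. Open circles are the other probes of iron and heme genes.

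The mirB log2 ratio was -3.43 (flip) and -5.58 (flop). Both arrays placed the transcript far lower with menadione, by 10.8-fold (flip) and 47.8-fold (flop). Only 18 of 3049 flip values and 3 of 2267 flop values were lower than that of mirB. Its 2-array mean was the second lowest of all 2265 probes. The lowest, at -4.77, was that of 1 probe of ANIA_02924, a gene known here only by its locus tag. Other probes of ANIA_02924 lay higher, 1 at -2.05 (flip) and -1.83 (flop) and 2 with only a flip value, 0.38 and -0.29. Among the 275 probes of genes with a symbol, mirB was the lowest.

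The size of the mirB ratio is the least certain of the 3, because its arrays differed by 2.15 on the log2 scale. Only 24 probes (1.06%) differed by more between the arrays, and the median difference over all probes with both values was 0.28. Wide gaps were common at this end of the range. Among the 20 probes with the lowest means, the median gap was 1.15, 2 probes had a gap wider than that of mirB, and the flop value was the lower one for 17. When the arrays were brought to a common spread, mirB stood at -3.79 (flip) and -5.10 (flop), a gap of 1.31. Which array is nearer to the true ratio cannot be told without intensities. A fold for mirB is therefore a range of 10.8 to 47.8 between the arrays.

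The mirC log2 ratio was -0.07 (flip) and 0.21 (flop). The signs were opposite and both values were small. Lower than mirC were 1359 of 3049 flip values and 1236 of 2267 flop values, which puts it close to the median of either array. Its gap of 0.28 equalled the median gap. A change in mirC smaller than this gap could not be told from the disagreement between the 2 arrays.

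The pair of transporter genes thus had unlike ratios on the same arrays. The log2 ratio of mirB minus that of mirC was -3.36 (flip) and -5.79 (flop), a mean of -4.58 ± 1.72 (SD, n = 2). This is a difference between 2 ratios, and levels of the 2 transcripts cannot be set against each other from these values. Probe sequences were not used here, so cross-hybridisation between related transporter transcripts was not tested.

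The hemA log2 ratio was -1.61 (flip) and -1.63 (flop), 3.05-fold and 3.10-fold lower with menadione. The arrays gave almost the same value, and only 76 of 2265 probes had a smaller gap between the arrays than its 0.02. Of the 212 probes at least 2-fold lower on both arrays, 12 had a gap no wider than that of hemA. This closeness held for the values as deposited: at a common spread the flip value was -1.78 and the flop value -1.49. Lower than hemA were 160 of 3049 flip values and 146 of 2267 flop values. By its 2-array mean, hemA was number 134 from the lowest of 2265 probes and number 22 among the 275 with a symbol. The log2 ratio of hemA minus that of mirC averaged -1.69 ± 0.21, and that of mirB minus that of hemA -2.89 ± 1.51 (SD, n = 2).

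**Figure D2:**
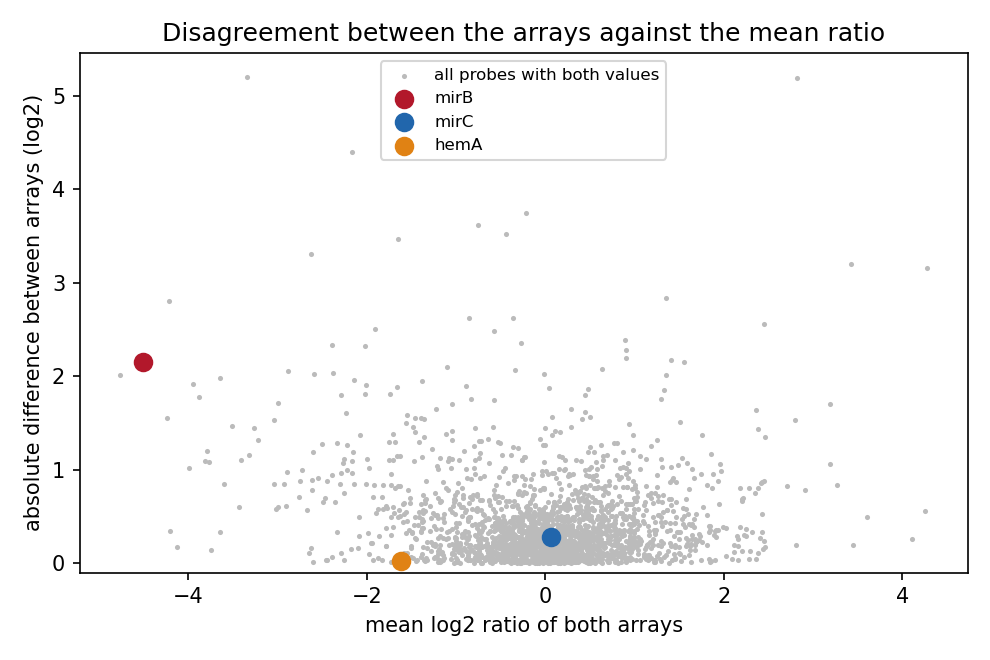
The absolute difference between the 2 arrays (log2) is plotted against the 2-array mean log2 ratio for the 2265 probes with both values. The mirB probe combines a very low mean with a gap of 2.15, hemA has a gap of 0.02 and mirC a gap of 0.28, the median of all probes.

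Each of these values is that of 1 printed clone, and its link to the gene rests on the platform annotation. For genes with several probes on the array that link could be looked at. Over 388 pairs of probes assigned to the same gene (285 genes), the 2-array means differed by a median of 0.80. Over all pairs of the 2265 probes the median difference was 0.835, hardly more. The Pearson r of the same-gene pairs, each pair taken in both orders, was 0.111, a description across pairs that share arrays and genes. Gene names behind single probes, those of mirB, mirC and hemA included, may therefore not hold, and which of them do was not tested. No second probe of mirB, mirC or hemA was present to repeat their values.

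Other genes of iron and heme metabolism were taken from 6 lists of 126 symbols, drawn up from general knowledge with earlier results known. Besides the 3 genes above, 12 of the listed genes were found on the array by symbol, with 22 probes. Both arrays gave a value for 9 of these probes from 8 genes. In a limma fit over all 2265 probes with Benjamini-Hochberg adjustment, 1 of the 9 was higher and 1 lower with menadione. The p-values of this fit rest on the spread between the arrays, so they may not measure variation between cultures. In that fit 24.6% of all probes passed, 12.2% higher and 12.4% lower. The median of the 9 means was 0.12, against 0.035 for all probes with both values. Genes known only by a locus tag could not be assigned to a list.

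**Figure D3:**
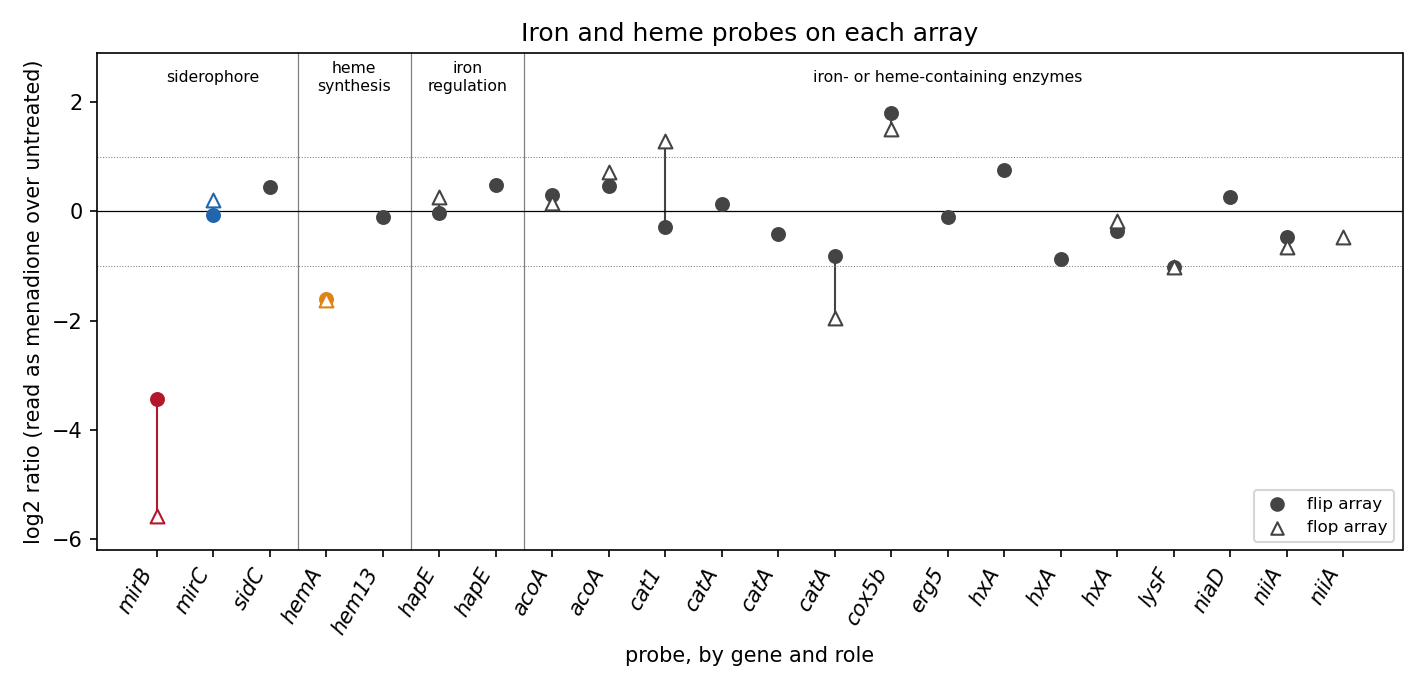
Log2 ratios of mirB, mirC, hemA and the other listed probes that had a value, ordered by role, with filled circles for the flip array and open triangles for the flop array; dotted lines mark 2-fold. The mirB ratio lies below every other probe shown, and only cox5b, hemA, mirB and lysF lie past a dotted line with both of their values.

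Among genes of siderophore production and transport, sidC was the only other listed gene on the array. It encodes the nonribosomal peptide synthetase that makes the intracellular siderophore. Its probe had only a flip value, 0.45, in the opposite direction to mirB there. Of heme synthesis, hem13 was the only other listed gene, named after the budding yeast gene for coproporphyrinogen oxidase, a late step of the pathway. Its single value, -0.10 on the flip array, was close to 0, whereas hemA stood at -1.61 on that array. Neither gene had a second value, so neither was tested.

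Of the regulators of iron genes, only hapE was on the array, a subunit of the CCAAT-binding complex that acts with HapX when iron is scarce. One hapE probe had log2 ratios of -0.03 (flip) and 0.27 (flop) and did not pass (limma adjusted p = 0.586). Another was at 0.48 on the flip array alone. The genes sreA, hapX, mirA and sidA were looked for and not found on the array by symbol. No listed gene of reductive iron uptake, iron storage or iron-sulfur cluster assembly was found by symbol.

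The list of iron- or heme-containing enzymes and their subunits held 8 probes with both values, of which 1 rose and 1 fell. This is a share near that of all probes, 24.6% either way, so the count says nothing particular about these enzymes. The gene cox5b, named after a subunit of cytochrome c oxidase in budding yeast, had log2 ratios of 1.8 (flip) and 1.5 (flop) and rose (mean 1.65 ± 0.21, SD, n = 2, limma adjusted p = 0.0351). Over all 2265 probes the lowest limma adjusted p was also 0.0351, so every probe that passed lay between that value and 0.05. The gene lysF, which encodes the iron-sulfur enzyme homoaconitase of lysine synthesis, was at -1.02 on both arrays and fell (adjusted p = 0.0380 by limma). By contrast acoA, for the related iron-sulfur enzyme aconitase, was positive on both arrays for both measured probes. They were at 0.30 and 0.15, and at 0.46 and 0.72, in the order flip and flop, and neither passed (limma adjusted p = 0.296 and 0.0850).

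Catalases hold heme in their active site. The catA probe with both values was at -0.81 (flip) and -1.95 (flop) and did not pass (limma adjusted p = 0.0848). It passed at an adjusted p of 0.0197 by limma once the arrays had a common spread. At that setting 878 of all 2265 probes passed, against 557 as deposited. The same catA probe did not pass after centring (limma adjusted p = 0.0658) or with robust moderation (limma adjusted p = 0.0875). Other catA probes were at 0.13 and -0.42 on the flip array alone. The catalase gene cat1 was at -0.28 (flip) and 1.28 (flop), in opposite directions, and did not pass (limma adjusted p = 0.463).

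In nitrate assimilation, the siroheme enzyme nitrite reductase is encoded by niiA, and the heme-containing nitrate reductase by niaD. One niiA probe was at -0.46 (flip) and -0.66 (flop) without passing (limma adjusted p = 0.0850), and another was at -0.46 on the flop array alone. The niaD probe was at 0.26 on the flip array alone. The iron-sulfur purine hydroxylase gene hxA had 1 probe with both values, -0.35 (flip) and -0.18 (flop), which did not pass (limma adjusted p = 0.244). Its other probes were at 0.75 and -0.87 on the flip array, so probes of this gene disagreed in sign. The P450 gene erg5 of sterol synthesis was at -0.11 on the flip array alone. None of the 9 listed probes with both values had a ratio near that of mirB, and the lowest of their means was -1.38, for catA.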

How the data were processed

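The authors scanned 2-colour cDNA arrays (GenePix 4000B scanner, GenePix Pro 3.0) and normalized ratios by block-wise LOESS in SAS for Windows version 8, per the series' design text. The deposited values, read here as log2 ratios, are summaries of normalized data, per the labels' titles. Not given in the sources used here are how duplicate spots were combined, how background was treated, why cells are empty and the base of the logarithm. As natural logarithms the mean of mirB would be a 90.5-fold difference.

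Probes were named by the platform annotation (2779 of 3533), matched by Entrez ID to RefSeq assembly ASM1142v1. Its build's relation to the clones is not given, so coordinates are not printed. No genome or sequence table was used.

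The values were used as deposited. For the 2265 probes with both values, limma (version 3.58.1, R 4.3.3; lmFit, eBayes, Benjamini-Hochberg, threshold 0.05) set the mean ratio against 0, with 1 residual degree of freedom per probe, a prior variance of 0.0538 and 1.95 prior degrees of freedom. The fit was tested on simulated data. The genes and lists were chosen with earlier results of these data known. Named are every probe of mirB, mirC and hemA, every probe with a value of the listed symbols, the 3 nearest probes with a symbol over the 2 arrays, and neighbouring genes in RefSeq order. ANIA_02924 was named after its value was seen. Alternatives were scaling, centring, moderation, filters, thresholds, fold limits, the sign of the flop array and leaving out an array.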

Additional observations from a re-analysis of the deposited data

How the results depend on the processing

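Scaling the arrays to a common spread moved the mean of mirB, mirC and hemA by less than its SD, and so did centring for mirB and mirC. Centring gave -1.66 for hemA, beyond its small SD. As deposited, the arrays correlated positively over all probes with both values (Pearson r = 0.844). Turning the sign of the flop array gave 1.08 for mirB, 0.01 for hemA and -0.14 for mirC, with 0 of the 3 genes at least 2-fold in 1 direction. On 1 array alone mirB ranged from -5.58 to -3.43, hemA from -1.63 to -1.61 and mirC from -0.07 to 0.21. The count of 2 genes was the same after scaling or centring, and at a 3-fold limit, which hemA passed narrowly (3.05-fold on the flip array). It was also the same at a 1.5-fold limit and with natural logarithms, but neither of these settings could lower it. Of all probes, 557 passed by limma, 683 with centring and 537 with robust moderation. This became 878 at a common spread, 305 when probes with 1 value were kept, 951 at an adjusted p under 0.10, and 0 at 0.01 (1035 probes at an unadjusted p under 0.05). With the flop sign turned the limma count was 0 (2 at an unadjusted p under 0.05). Of the 9 listed probes, 2 passed, 3 at a common spread, 2 with centring, robust moderation or averaged probes, and 0 with the flop sign turned (0 at an unadjusted p under 0.05). Each ratio already sets menadione RNA against untreated RNA on the same array, so no further pairing was applied. No test can be made on 1 array.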

Other observations

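Likeness to each gene was measured as the Euclidean distance between log2 ratios over the 2 arrays, among probes of genes with a symbol. Nearest to mirB was flbC, a regulator of asexual development, at -2.66 (flip) and -4.64 (flop), a distance of 1.22. It was followed by rpp1 at a distance of 1.48 and a probe of cit1, citrate synthase, at 1.87. These distances are larger than those found for hemA and mirC. The flop value was the lower one in all 3 of these probes, which a choice by nearness to mirB favours. It was also the lower one for 17 of the 20 probes with the lowest means. Counting probes of every kind, 6 lay nearer to mirB than flbC did. Another cit1 probe was at -2.6 (flip) and -3.21 (flop), so these cit1 probes were alike in direction.

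Nearest to hemA were a probe of steA, a regulator of sexual development, at a distance of 0.206, the probe of nhp6, a chromatin protein gene, at 0.253, and a probe of the DNA repair gene rad18 at 0.297. Other probes of steA and rad18 had only a flip value, 0.15 and -0.04, unlike hemA. Nearest to mirC were single probes of hapE at 0.0721, mdm12 at 0.0728 and erdS at 0.0806, each with ratios near 0. The other mdm12 probe was at 0.95 (flip) and 1.35 (flop), the other erdS probe at 0.52 and 0.67, and another hapE probe at 0.48 (flip only), so the likeness holds for the probe and not for the gene. With only 2 arrays, such distances state that the ratios were alike and no more.

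Of the 18 genes that flank mirB, mirC and hemA in RefSeq gene order (3 on either side of each), 2 were on the array and 1 had values. That gene, ANIA_08537, is the third gene from mirB on one side and was at 0.81 on both arrays, in the opposite direction to mirB. The genes directly next to mirB, mirC and hemA on either side had no named probe on the array.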
